A study of Mus musculus with 4 samples.

Results

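Of the 9850 strong H3K4me3 regions shared by all libraries of the study, 205 passed a threshold for being wider in macrophages without Wbp7. The threshold was a mean log2 width ratio of 0.5. A ratio above 0 in both treatments, described below, was seen at 4928 of the 9850 regions, 50.0%. H3K4me3, histone H3 trimethylated on lysine 4, was located by ChIP-seq, in which DNA bound to a histone mark is pulled down with an antibody and sequenced, in primary mouse macrophages on day 7 of their growth from bone marrow. The 4 groups were Wbp7-/- cells untreated, Wbp7-/- cells given 10 ug/ml lipopolysaccharide (LPS) for 4 h, Wbp7+/- cells untreated and Wbp7+/- cells given the same LPS treatment. All came from mice of a mixed background, 94% C57BL/6 and 6% 129/Ola, and the controls carried 1 functional copy of Wbp7, not a full set. Each group held 1 library, so differences stand without a replicate check, and neither a test between groups nor a p-value is given. How many animals stand behind a library is not stated in the labels.

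The members were chosen from the authors' peak lists. Peaks of the 4 lists that overlapped by 1 bp or more were joined, which gave 18786 regions, and 12294 of them had a peak in every list. Of these, 9850 had a highest peak score of 3100 or above, the value at which the lists pile up and which is called the ceiling here. The width of a region in a list was the summed width of its peaks there. A region was a member when the mean of its untreated and its LPS log2 width ratio, Wbp7-/- over Wbp7+/-, was 0.5 or higher, a width 1.41-fold that of Wbp7+/- cells. This held for 205 regions, 2.08% of the 9850. The mirrored rule, a mean of -0.5 or lower, was met by 295 regions, 2.99%. The widths thus chose the members, and the width ratios below are a description of what was chosen.

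Wbp7, also called Kmt2b and, in the titles of these samples, MLL2, encodes one of the methyltransferases that place methyl groups on lysine 4 of histone H3. H3K4me3 collects around the start sites of active genes, mostly at CpG-rich promoters, and several related enzymes (the SETD1 and the KMT2 families) can place it. The length of the marked stretch differs between promoters, and the longest stretches often lie at genes tied to the identity of a cell type. LPS, a component of the bacterial outer membrane, is sensed by macrophages through Toll-like receptor signalling and sets off a broad transcriptional response. Positions below are in mm9, counted from 1. Genes at the regions, their strand and their sequence were not analysed here, since no genome or annotation of that build was used, and the labelled cell type was not checked against marker genes for the same reason.

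Peaks were called in each library separately, and the read numbers are not known. The Wbp7-/- lists held 14599 untreated and 15086 LPS peaks and the Wbp7+/- lists 17316 and 17313. Over all 9850 strong shared regions the median log2 width ratio Wbp7-/- over Wbp7+/- was 0.05 untreated and 0.06 with LPS. The whole set was thus shifted slightly towards wider Wbp7-/- peaks, and with the ratios centred on these medians 153 of the 205 members passed the rule. For LPS-treated Wbp7+/- cells, the header of the peak list reads 24 h where the sample label reads 4 h. The LPS time of that library is therefore uncertain, and every LPS ratio rests on it. Without that list, 245 regions of 9806 passed on the untreated ratio alone.

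In the members, peaks covered a median of 2913 bp untreated and 2735 bp with LPS in Wbp7-/- cells, against 1895 bp untreated and 1688 bp with LPS in Wbp7+/- cells. Their ranges were 1188 to 7567 bp and 1179 to 8189 bp in Wbp7-/- cells, against 612 to 6825 bp and 545 to 5261 bp in Wbp7+/- cells. Set beside all strong shared regions, the members had medians between the median and the upper quartile in Wbp7-/- cells and below the lower quartile in Wbp7+/- cells. The medians of all 9850 were 2610 and 2582 bp in Wbp7-/- lists, against 2481 and 2437 bp in Wbp7+/- lists. Peaks summing to 5 kb or more were found at 11 members untreated and 12 with LPS in Wbp7-/- cells (6.60% and 7.80% of all strong shared regions), against 5 and 1 in Wbp7+/- cells (6.81% and 7.82%).

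**Figure D1:**
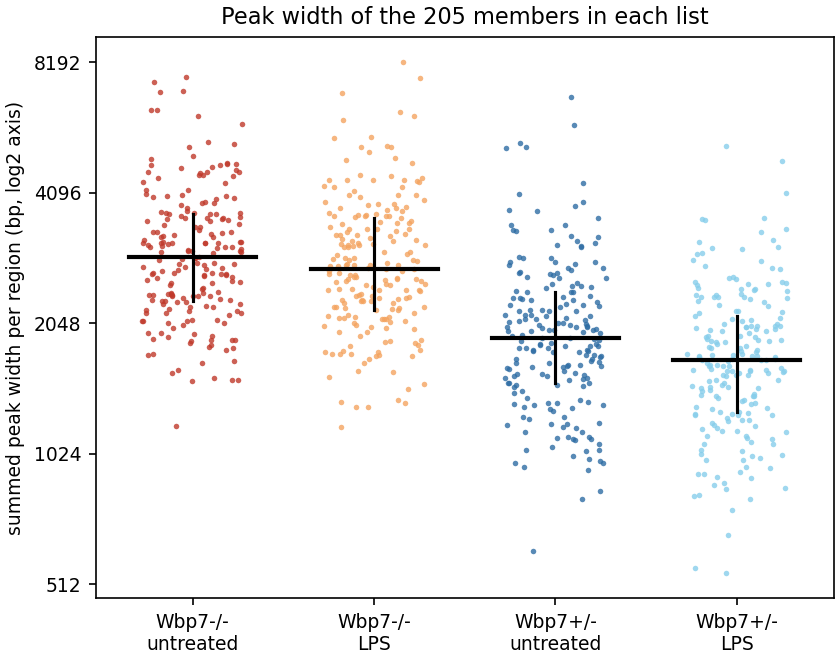
Summed peak width (bp, log2 axis) of each of the 205 members in the 4 lists. Points are regions, horizontal bars medians and vertical bars the range between the quartiles. The medians are 2913 and 2735 bp in the Wbp7-/- lists and 1895 and 1688 bp in the Wbp7+/- lists.

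The treatments gave separate pairs of libraries, and most members were wider in each pair. The untreated ratio was 0.5 or higher at 147 members (242 regions, 2.46% of all) and the LPS ratio at 167 (325 regions, 3.30%). Both ratios reached 0.5 at 109 members (1.11% of all). At 197 members both Wbp7-/- widths lay above both Wbp7+/- widths, where 36.0% of all strong shared regions did so. The median ratio of the members was 0.60 untreated and 0.65 with LPS. The ratio was above 0 in both treatments at 204 members (50.0% of all), and 1 member, named for that value, was not wider in untreated Wbp7-/- cells. On chromosome 10 from 62409251 to 62411457 it measured 2051 bp untreated and 2067 bp with LPS in Wbp7-/- cells, against 2098 and 989 bp in Wbp7+/- cells, so that its membership rests on the LPS-treated Wbp7+/- library. Across the 9850 regions, which share their libraries, the untreated and the LPS ratio had a Pearson r of 0.633 and a Spearman rho of 0.520.

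**Figure D2:**
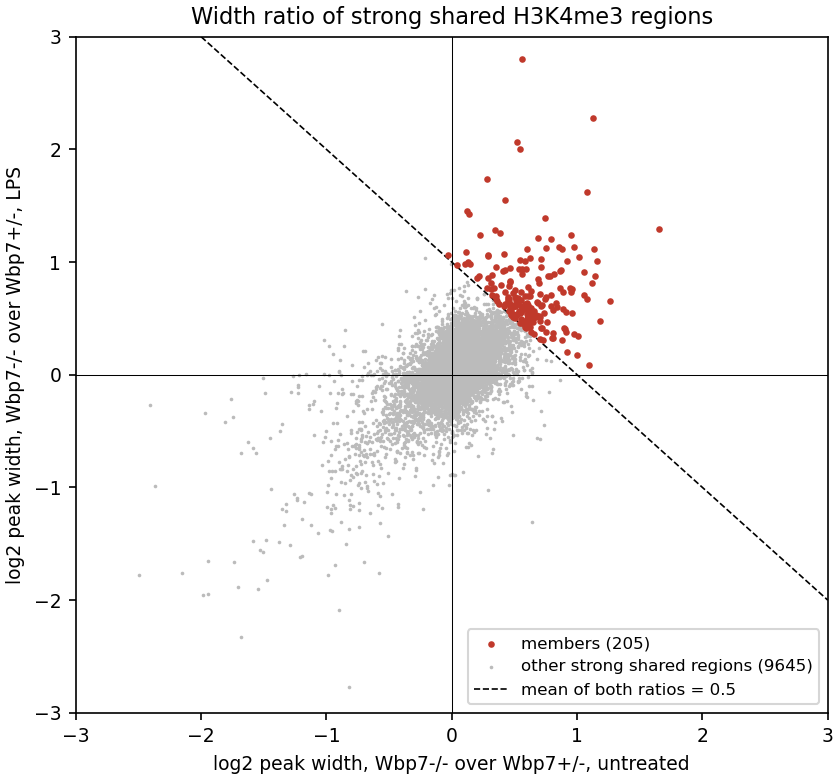
Log2 width ratio Wbp7-/- over Wbp7+/- of the 9850 strong shared regions in untreated cells (x axis) and with LPS (y axis). The 205 members lie above the dashed line, where the mean of both ratios is 0.5, and the regions of the mirrored tail reach further from 0, down to a mean of -2.13 against a highest mean of 1.71 in the members.

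The 20 members with the highest mean ratio are described in groups that were formed after their values were seen. In the first group, the peaks of Wbp7+/- cells were low-scoring and short after LPS. The highest score of these regions in the LPS-treated Wbp7+/- list ran from 55.17 to 515.88. The lowest score in that whole list was 50.03, so some of these peaks were barely called. Members of the 20 placed in other groups also had scores in that range. These were the chromosome 19 region from 5049939 (144.5) and the chromosome 9 region from 60878416 (193.74). On chromosomes 1 and 3, the regions from 196764533 (318.7) and from 96051155 (321.69) did as well. Their widths in that list ran from 759 to 1025 bp. The leading member, on chromosome 12 from 82118487 to 82121720, measured 3234 bp untreated and 2649 bp with LPS in Wbp7-/- cells, against 1478 and 545 bp in Wbp7+/- cells. Its highest scores were at the ceiling of 3100 in both Wbp7-/- lists, against 465.6 and 92.2 in the Wbp7+/- lists. The next, on chromosome 5 from 114246081 to 114250855, measured 4775 and 3902 bp in Wbp7-/- cells, against 3236 and 558 bp in Wbp7+/- cells. Its LPS ratio of 2.81 was the highest of any member, and its untreated ratio was 0.56. A single peak covered it in untreated Wbp7-/- cells, where untreated Wbp7+/- cells had 2 peaks.

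Further members belonged with these. The region on chromosome 7 from 25174574 to 25180814 measured 6172 and 5490 bp in Wbp7-/- cells, against 4304 and 1314 bp in Wbp7+/- cells. The one on chromosome 1 from 88005432 to 88010169 measured 4738 and 3623 bp in Wbp7-/- cells, against 3250 and 904 bp in Wbp7+/- cells. In untreated cells their ratios were 0.52 and 0.54, close to the threshold, and with LPS 2.06 and 2.00. The region on chromosome 13 from 109565053 to 109568128 likewise measured 3060 and 3076 bp in Wbp7-/- cells, against 2519 and 921 bp in Wbp7+/- cells. That on chromosome 3 from 141910036 to 141912855 measured 2628 and 2735 bp in Wbp7-/- cells, against 1963 and 932 bp in Wbp7+/- cells. At both of them the untreated ratio, 0.28 and 0.42, was below 0.5 and the high mean came from the LPS-treated pair.

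In the second group, the ratio was above 1 in both pairs of libraries. This also held for members placed in other groups: the leading member on chromosome 12, the chromosome 9 region from 44141618 and the chromosome 1 region from 191509754. On chromosome 1, the region from 196764533 to 196767531 measured 2999 and 2093 bp in Wbp7-/- cells, against 955 and 855 bp in Wbp7+/- cells, with ratios of 1.65 and 1.29. On chromosome 11, that from 62034715 to 62038339 measured 3365 and 3625 bp in Wbp7-/- cells, against 1594 and 1177 bp in Wbp7+/- cells, with ratios of 1.08 and 1.62. On chromosome 3, that from 96051155 to 96053443 measured 2289 and 2226 bp in Wbp7-/- cells, against 1040 and 1025 bp in Wbp7+/- cells, with ratios of 1.14 and 1.12. In the 3 regions of this second group the highest scores in the Wbp7+/- lists ran from 268.12 to 1215.35, all below the ceiling.

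Among the 20, a peak was at the ceiling in every list at 3 members. The region on chromosome 9 from 44141618 to 44146178 measured 4561 bp untreated and 3779 bp with LPS in Wbp7-/- cells, against 2047 and 1874 bp in Wbp7+/- cells. That on chromosome 1 from 133031626 to 133036198 measured 3661 and 4437 bp in Wbp7-/- cells, against 2183 and 1688 bp in Wbp7+/- cells. That on chromosome 12 from 25391261 to 25395833 measured 4573 and 3856 bp in Wbp7-/- cells, against 2076 and 2106 bp in Wbp7+/- cells. At these 3 a difference of over 1 kb in width therefore went with a score at the ceiling in both genotypes.

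The rest of the 20 had mean ratios from 0.97 to 1.09. On chromosome 5, the region from 23892353 to 23896225 measured 3873 and 3464 bp in Wbp7-/- cells, against 2007 and 1466 bp in Wbp7+/- cells. On chromosome 11, that from 98768828 to 98771106 measured 2184 and 2236 bp in Wbp7-/- cells, against 1113 and 1018 bp in Wbp7+/- cells. On chromosome 1, that from 191509754 to 191513410 measured 3657 and 3126 bp in Wbp7-/- cells, against 1813 and 1517 bp in Wbp7+/- cells. The ratios of these 3 ran from 0.95 to 1.24 over both treatments. The region on chromosome 19 from 5049939 to 5051885 was short, with 1864 and 1755 bp in Wbp7-/- cells against 1079 and 759 bp in Wbp7+/- cells. That on chromosome 8 from 121947454 to 121951169 measured 3716 and 2857 bp in Wbp7-/- cells, against 1793 and 1517 bp in Wbp7+/- cells. That on chromosome 17 from 35133371 to 35137428 measured 3957 and 4058 bp in Wbp7-/- cells, against 1818 and 2310 bp in Wbp7+/- cells. The remaining members of the 20, on chromosomes 9 and 11, are described with their neighbours below.

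**Figure D3:**
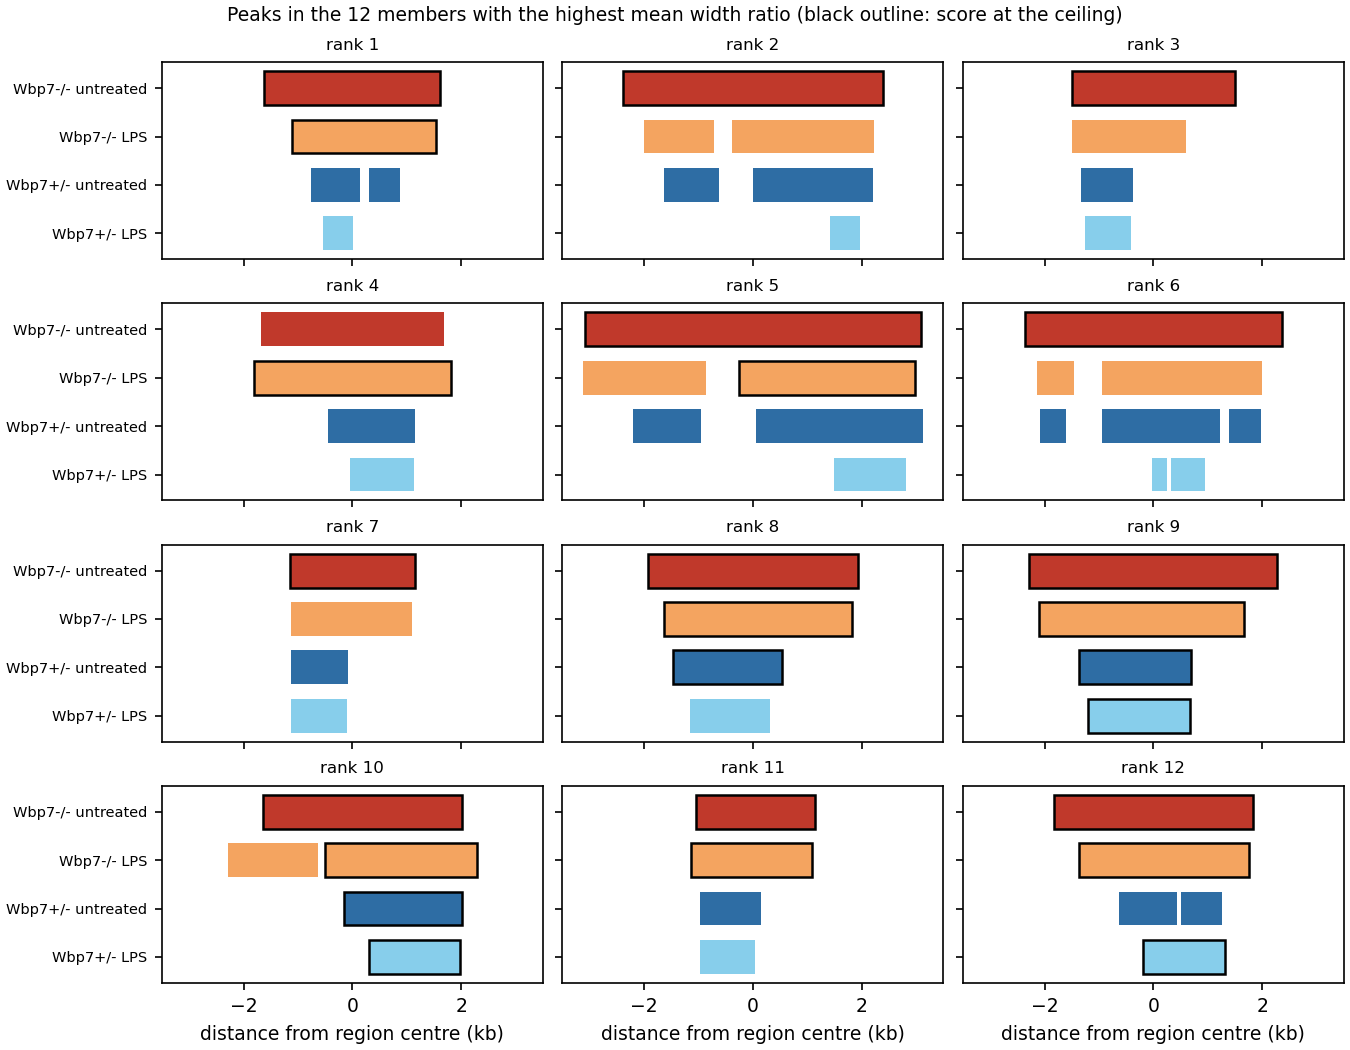
Peaks of the 12 members with the highest mean width ratio, ranks 1 to 12, in the 4 lists, with the Wbp7-/- lists above the Wbp7+/- lists. The x axis is the distance from the centre of the region in kb, bars are called peaks, and a black outline marks a score at the ceiling of 3100. At ranks 1 and 2 the peak of LPS-treated Wbp7+/- cells measures 545 and 558 bp, and at ranks 7 and 11 both Wbp7+/- peaks end on the same side short of the Wbp7-/- peaks.

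At the threshold the choice separated regions that hardly differ. The 5 members just inside it had means of 0.50, among them the region on chromosome 7 from 108991269 to 108994418, with 3133 and 2769 bp in Wbp7-/- cells against 2233 and 1941 bp in Wbp7+/- cells. The 5 regions just outside had means of 0.496 to 0.4997. The nearest of these, on chromosome 9 from 61792477 to 61796197, measured 3665 and 3569 bp in Wbp7-/- cells, against 2540 and 2576 bp in Wbp7+/- cells. With a minimum of 0.4 the set would hold 379 regions, and with a minimum of 1 it would hold 14.

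In net sum, the extra width lay almost wholly at the outer edges of the regions. Over the 205 members, Wbp7-/- peaks covered 216.7 kb more than Wbp7+/- peaks in untreated cells. Of this, 94.8 kb lay beyond the left edge, the end of lower coordinate, 114.7 kb beyond the right edge and 7.2 kb inside the span. With LPS the extra 242.5 kb divided into 112.3, 128.2 and 2.0 kb. The inside part is 0 by definition at the 151 members with a single peak in each list. Elsewhere gains and losses partly cancel, with values per member from -824 to 1376 bp untreated and from -614 to 2088 bp with LPS. The span of Wbp7+/- peaks lay inside the span of Wbp7-/- peaks in both treatments at 144 members (23.6% of all strong shared regions). Since the rule fixed that the Wbp7-/- peaks be wider, these counts describe where that width lay.

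Most members were wider on 1 side. An edge counted as further out when it lay 200 bp or more beyond that of Wbp7+/- cells in both treatments. By this measure the right edge alone was further out at 87 members (7.30% of all strong shared regions), the left edge alone at 67 (7.03%), both edges at 37 (0.975%) and neither at 14 (84.7%). The larger of the edge shifts had a median of 810 bp untreated and 858 bp with LPS, and the lesser 121 and 108 bp. A single shifted edge was also more common than both over all strong shared regions, so this is not particular to the members. The larger side held a median of 88.0% of the outward shift untreated and 87.0% with LPS. It holds the greater part by definition, and this share was not computed for all strong shared regions. An example is the member on chromosome 3 from 96051155, where the left edges of the genotypes lay 16 bp (untreated) and 11 bp (LPS) apart and the right edge lay 1233 and 1190 bp further out in Wbp7-/- cells. A region on chromosome 1 from 184442087 to 184448438, ranked next after the 20 and picked after its values were seen, showed the mirror image. Its left edge lay 2914 and 2893 bp further out and its right edge 70 and 232 bp.

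The side of the extra width was not named in the rule, although the edge shifts, with any gaps inside, make up the width difference that chose the members. The edge with the larger outward shift was the same one in untreated and LPS-treated cells at 179 of 205 members, a share of 87.3%. Over all strong shared regions this share was 63.4%, in a set whose edges mostly differ by little, with a median larger shift of 114 bp untreated. At the 295 regions that were narrower without Wbp7, the same comparison gave 231, or 78.3%. Members were chosen for large shifts in these same libraries, so these shares are a description. Which side faces the transcribed part of a gene was not analysed.

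**Figure D4:**
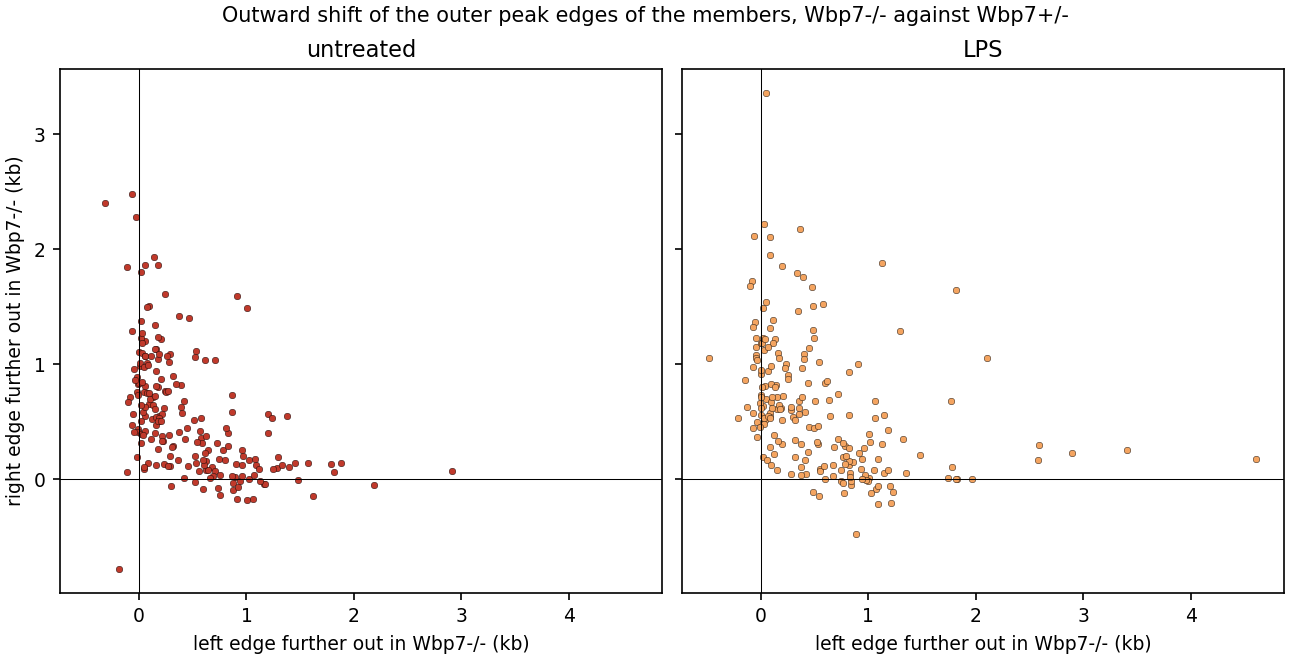
Outward shift of the outer peak edges of the 205 members in Wbp7-/- against Wbp7+/- cells, in kb, for the left edge (x axis) and the right edge (y axis), in untreated (left panel) and LPS-treated cells (right panel). Each point is a region. Points lie mostly along one axis or the other, with a median of 810 bp for the larger and 121 bp for the lesser shift in untreated cells.

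The number of peaks seldom differed between the genotypes in the same direction in both treatments. A single peak was called in each of the 4 lists at 151 members (85.0% of all strong shared regions), a share of 73.7%. More peaks in Wbp7-/- than in Wbp7+/- cells in both treatments were found at 3 members (0.650%) and fewer at 4 (1.26%). The 3, named after their values were seen, were the chromosome 1 region from 171459926 to 171462532, a chromosome 9 region from 22190700 to 22194756, and one at 72759351 to 72761063 of chromosome X. Each had 2 peaks in each Wbp7-/- list and 1 in each Wbp7+/- list, at the ceiling throughout. Members broken into several peaks numbered 18 untreated and 27 with LPS in Wbp7-/- lists (4.74% and 6.43% of all strong shared regions), against 29 and 14 in Wbp7+/- lists (8.03% and 6.26%). These are 8.78% and 13.2% of the members in Wbp7-/- lists, against 14.1% and 6.83% in Wbp7+/- lists.

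Members were more often below the ceiling in the Wbp7+/- lists than in the Wbp7-/- lists. The rule asked for the ceiling in any of the lists and for wider Wbp7-/- peaks. A region low in both Wbp7+/- lists could therefore pass only through a Wbp7-/- list. The counts below are thus not independent of the rule and describe what was chosen. The score grows with enrichment and with the unknown depth, and the part of either in the width ratios was not tested. At the ceiling stood 196 members untreated and 173 with LPS in Wbp7-/- lists (91.2% and 89.9% of all strong shared regions), against 135 and 121 in Wbp7+/- lists (96.4% and 94.1%). The lowest highest-score of a member was 797.2 untreated and 535.8 with LPS in Wbp7-/- lists, against 76.32 and 53.01 in Wbp7+/- lists. All 4 lists were at the ceiling at 117 members (85.5% of all strong shared regions). The Wbp7+/- lists were both below the ceiling at 67 members (2.13%), and at 31 of those both Wbp7-/- lists reached it (0.772%). The reverse pattern was seen at 0 members (4.89%).

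Which tail was the larger depended on the score class and on the centring of the ratios. Among the 8423 regions at the ceiling in every list, 117 were wider by the rule (1.39%) and 56 narrower by the mirrored rule (0.665%). With the ratios of those regions centred on their median, an alternative added after the values were seen, 73 were wider and 83 narrower. Over all 9850 regions the order was the other way, with 205 wider and 295 narrower. Of the 295 narrower regions, 163 were below the ceiling in both Wbp7-/- libraries and reached it in both of Wbp7+/- cells. The 117 members at the ceiling throughout had median widths of 3091 bp untreated and 2861 bp with LPS in Wbp7-/- cells, against 2049 and 1870 bp in Wbp7+/- cells. Their median ratios were 0.60 and 0.61, with a highest mean of 1.08.

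The width difference between LPS-treated and untreated cells was not named in the rule, but it is built from the same widths that chose the members. The medians and counts below are therefore not independent of the rule and are a description. In Wbp7-/- cells the members had a median log2 width LPS over untreated of -0.07, beside -0.03 over all strong shared regions. In Wbp7+/- cells it was -0.14, beside -0.04. A difference of 0.5 or higher was seen at 5 members in Wbp7-/- cells (3.61% of all) and at 8 in Wbp7+/- cells (3.82%), which are shares of 2.44% and 3.90%, near those of all regions. At -0.5 or lower stood 3 members in Wbp7-/- cells (1.16%) and 35 in Wbp7+/- cells (1.63%), shares of 1.46% and 17.1%. A narrow peak in LPS-treated Wbp7+/- cells raises the ratio that chose the members, so this count is not independent of the rule. Of these 35, 24 scored below the ceiling in LPS-treated Wbp7+/- cells, and 11 had an untreated ratio of 0.5 or higher. Their median widths were 2898 bp with LPS and 3184 bp untreated in Wbp7-/- cells, and 1239 bp with LPS and 2349 bp untreated in Wbp7+/- cells.

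**Figure D5:**
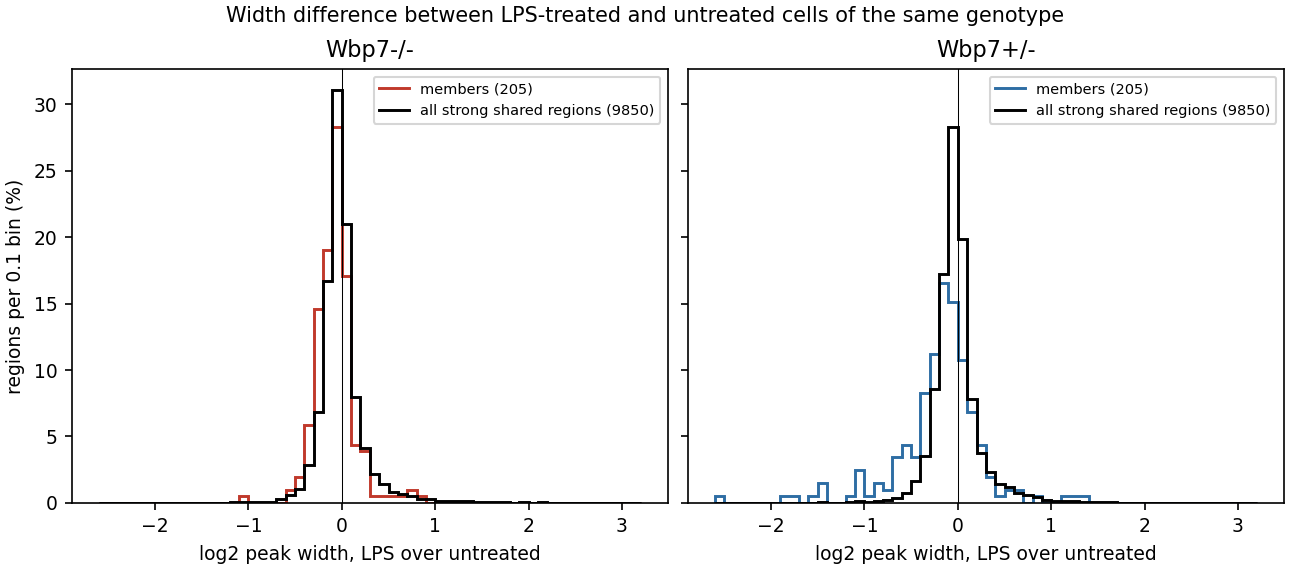
Distribution of the log2 peak width LPS over untreated in Wbp7-/- cells (left panel) and Wbp7+/- cells (right panel), as a percentage of regions per bin of 0.1, for the 205 members (coloured) and all 9850 strong shared regions (black). In Wbp7+/- cells the members have a tail towards narrower peaks with LPS, with 35 regions at -0.5 or lower, against 3 in Wbp7-/- cells.

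A few members were wider with LPS in both genotypes, by a log2 difference of 0.5 or higher in each. Wbp7-/- widths were the larger there in each treatment, which the rule made likely. The ratio was above 0 in both treatments at 204 of the 205 members. Members with an LPS difference of 0.5 or higher in both genotypes, named for their LPS values, numbered 4. This is a share of 1.95%, beside 2.12% of all strong shared regions. On chromosome 9, the one from 50359594 to 50364910 had the highest LPS difference of any member in Wbp7-/- cells, 0.85, with 5242 bp with LPS and 2913 bp untreated. In Wbp7+/- cells it measured 3572 bp with LPS and 1549 bp untreated. The region on chromosome 11 from 70599745 to 70603609 had the highest in Wbp7+/- cells, 1.32. It measured 3865 bp with LPS and 2371 bp untreated in Wbp7-/- cells, and 2460 bp with LPS and 986 bp untreated in Wbp7+/- cells. Its score was 76.32 in untreated Wbp7+/- cells, the lowest of any member in that list. On chromosome 9, the region from 41387441 to 41392520 measured 5080 bp with LPS and 3151 bp untreated in Wbp7-/- cells, and 2736 and 1793 bp in Wbp7+/- cells. On chromosome 7, that from 142729199 to 142731991 measured 2793 bp with LPS and 1948 bp untreated in Wbp7-/- cells, and 1984 and 1325 bp in Wbp7+/- cells. At 3 of the 4 the LPS-treated Wbp7+/- width exceeded the untreated Wbp7-/- width, so the genotypes overlapped across treatments.

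Other members differed with LPS in 1 genotype more than in the other, a difference that was not tested, and the first of them was picked after its values were seen. On chromosome 8, the region from 70732689 to 70736527 measured 3797 bp with LPS and 3533 bp untreated in Wbp7-/- cells, and 3581 bp with LPS and 1657 bp untreated in Wbp7+/- cells. There the untreated ratio of the genotypes was 1.09 and the LPS ratio 0.08, the lowest LPS ratio of any member. The largest narrowing with LPS in Wbp7-/- cells, -1.04, was on chromosome 9 from 67687500 to 67692941, with 2587 bp with LPS and 5311 bp untreated. In Wbp7+/- cells this region measured 2092 bp with LPS and 2895 bp untreated. The largest in Wbp7+/- cells, -2.54, was the chromosome 5 region described above, with 558 bp with LPS.

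The members were scattered over all 20 chromosomes represented in the lists. The share of strong shared regions that were members ran from 0.968% on chromosome 16 (3 of 310) to 3.78% on chromosome 9 (20 of 529, 95% Wilson interval 2.46 to 5.77%). Chromosome 11 held the largest number, 22 of 841. Another joined region lay within 10 kb of 85 members, 41.5%, beside 36.4% of all strong shared regions. The nearest strong shared region was within 10 kb of 55 members, 26.8%, beside 19.6% of all strong shared regions. The median distance to it was 26.7 kb for members and 34.6 kb for all. The neighbours within 10 kb had a median mean ratio of 0.12, beside 0.08 for the neighbours of all strong shared regions. Of the 55 neighbours, 2 were members themselves, 3.64%, beside 2.80% for all regions. In their width ratios the neighbours of members were thus close to the neighbours of all regions, while members more often had such a neighbour.

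Another member lay within 100 kb of 11 members (4.85% of all strong shared regions), and these formed 5 groups, all named after their positions and values were seen. On chromosome 11, the members from 81848895 to 81853119 and from 81858817 to 81862920 were 5.70 kb apart, the closest of all. The first measured 3517 bp untreated and 4133 bp with LPS in Wbp7-/- cells, against 1942 and 1888 bp in Wbp7+/- cells. The second measured 3149 and 3998 bp in Wbp7-/- cells, against 1921 and 1967 bp in Wbp7+/- cells. In both the left edges differed by at most 181 bp between the genotypes, and the right edge lay 1501 and 1047 bp further out in untreated and 2219 and 1948 bp further out in LPS-treated Wbp7-/- cells. The extra stretch thus lay on the same side of each, and it was longer with LPS.

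On chromosome 3, the member from 96040378 to 96042522 lay 8.63 kb from the one at 96051155 and was wider on the other side. It measured 2145 and 2121 bp in Wbp7-/- cells, against 1427 and 1109 bp in Wbp7+/- cells, with the left edge 690 and 1002 bp further out. Between them a strong shared region from 96047749 to 96049551 was no member, with a mean ratio of 0.23. On chromosome 9, the members from 60878416 to 60880197 and from 60903195 to 60906433 were 23.0 kb apart. The first measured 1735 and 1782 bp in Wbp7-/- cells, against 942 and 824 bp in Wbp7+/- cells. The second measured 3239 and 2700 bp in Wbp7-/- cells, against 2647 and 1301 bp in Wbp7+/- cells, and its untreated ratio was 0.29.

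The remaining groups were at the ceiling in every list. On chromosome 13, the members from 55429153 to 55432470, from 55470405 to 55474820 and from 55544999 to 55549541 had mean ratios of 0.84, 0.61 and 0.58. The first measured 3318 bp untreated and 2861 bp with LPS in Wbp7-/- cells, against 1713 and 1723 bp in Wbp7+/- cells. Its left edge had the larger outward shift in both treatments, while in the other two it was the right edge. Strong shared regions beside them, from 55421307 to 55425606 and from 55461899 to 55464778, had mean ratios of 0.12 and 0.18. On chromosome 11, the members from 78114407 to 78116482 and from 78156565 to 78159431 both had a mean ratio of 0.60 and were wider to the right, by 539 and 651 bp in untreated cells. A region between them, from 78141299 to 78143236, had a mean ratio of 0.23. In these 3 stretches members and other strong regions thus stood side by side.

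The broadest members were few. On chromosome 11, the region from 101029636 to 101038154 measured 7388 bp untreated and 8189 bp with LPS in Wbp7-/- cells, against 5211 and 4856 bp in Wbp7+/- cells. On chromosome 1, that from 187026730 to 187034530 measured 7567 and 7550 bp in Wbp7-/- cells, against 5334 and 5261 bp in Wbp7+/- cells. On chromosome 5, that from 100402675 to 100409870 measured 6975 and 6298 bp in Wbp7-/- cells, against 5187 and 4084 bp in Wbp7+/- cells. These 3 had a ratio above 0.4 in both pairs, whereas the region on chromosome 5 from 33360220 to 33367261 measured 7014 and 6961 bp in Wbp7-/- cells, against 6825 and 3551 bp in Wbp7+/- cells, with a ratio of 0.04 untreated and 0.97 with LPS. These 4 were chosen for their width after the values were seen.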

How the data were processed

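H3K4me3 ChIP-seq peak lists of 4 libraries, 1 per group, were used; groups came from the sample titles. Reads were aligned with Bowtie to mm9, per the submitters' processing notes, and peaks were called with MACS against an input, per the file headers. Versions, thresholds and read numbers are not stated there, so depth is unknown. The score of each peak was deposited by the authors as the caller wrote it. Most probably it saturates near 3100, although each list holds values up to 3233.06. The score was used only to class regions.

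Peaks were joined with bedtools 2.31.1 (minimum overlap 1 bp) and tabulated with pandas 2.3.3 in Python 3.11.15. Shares have 95% Wilson intervals (scipy 1.17.1) over regions, which cover counting error only. The code for the joining and the width rule was run on simulated copies of 1 list, with some well separated ceiling peaks widened in the Wbp7-/- copies. Such copies lack the differences between real libraries. The run therefore checks the code and does not show how the rule performs on these data. With 1 library per group no test was run. The members, lists and alternatives were chosen with earlier results of these data known. Regions named are the 20 of highest mean ratio, the extremes of the LPS difference and, of the 5 on each side of the threshold, the one nearest to it. All other regions named were chosen after their values were seen. Gene lists, markers and start sites planned for these regions were not used, since they need an annotation of mm9.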

Additional observations from a re-analysis of the deposited data

How the results depend on the processing

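Among 40 alternatives, 25 moved a count by no more than 1.5 times or a median by less than 0.1. For the number of members, 205, a stricter choice gave fewer by construction. It gave 109 with both ratios at 0.5, 14 with a mean of 1 and 117 with every list at the ceiling. The LPS ratio alone gave 325. Alternatives chosen after seeing the data gave 379 (minimum of 0.4) and 73 (every list at the ceiling, centred ratios). The narrower regions, 295, numbered 193, 61 and 56 under the first 3 of these choices and 83 under the last. Wider regions thus outnumbered narrower ones with every list at the ceiling, and not once those ratios were centred. With a minimum mean of 1 the median log2 width LPS over untreated of the members was -0.198 in Wbp7-/- and -0.404 in Wbp7+/- cells, over 14 regions. Members with more peaks in both Wbp7-/- lists, 3, numbered 19 with peaks joined within 1 kb, 0 with a minimum of 1 and 1 with peaks scoring at least 100. The cause was not tested where construction does not give it. Of the members under the untreated ratio alone, 147 of 242 were among the 205, and 167 of 325 under the LPS ratio. With 1 library per group no paired test was possible, and the labels give no replicate numbers that link libraries of different groups. A fit of genotype and treatment over the 4 libraries was not run. The alternative window for start sites was not run. Depth is unknown, so a peak's end marks where the signal no longer passed the caller's threshold in that library.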
